A study of Mus musculus with 6 samples.

Results

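The 9 genes described here encode secreted antagonists of Wnt signaling, namely the Dickkopf proteins Dkk1, Dkk2 and Dkk3, the secreted Frizzled-related proteins Sfrp1, Sfrp2, Sfrp4, Sfrp5 and Frzb (also known as Sfrp3), and Wnt inhibitory factor 1 (Wif1). Their rows were found by gene symbol, and they make up 9 of the 43472 genes listed in the count files. The set was drawn up with earlier results of these data known, so its share of calls is not independent evidence on Wnt antagonists. RNA-seq was performed on 6 libraries from whole intervertebral discs (IVDs) of the thoracic and lumbar spine at postnatal day 20 (P20), each from IVDs pooled from 2 to 3 mice on a background labelled C57B6/J. The 3 mutant libraries were from Col2Cre;Adgrg6 f/f mice, in which a Cre recombinase driven by Col2a1 regulatory sequence removes a floxed part of Adgrg6, an adhesion G protein-coupled receptor. The 3 control libraries were from Cre (-) littermates according to the text of the study, while their genotype label reads wild type and their titles read Col2Cre control, and their Adgrg6 alleles are not given. The study describes recombination by this Cre throughout the IVD and also in periosteum and trabecular bone, so that the mutant libraries are not a model of loss in a single cell type. The replicates are separate pools, and the sex of the mice is not given. The question addressed here is how the level of each antagonist in the IVD differs between Col2Cre;Adgrg6 f/f mutants and controls before the discs of these mutants show overt histopathology.

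Wnt ligands act by joining a Frizzled receptor to the co-receptor Lrp5 or Lrp6, which stabilizes beta-catenin and turns on target genes. Secreted antagonists interrupt this step in different ways. Dkk1 and Dkk2 bind Lrp5 and Lrp6, together with Kremen proteins, and so block the co-receptor, whereas Sfrp proteins, Frzb and Wif1 bind the Wnt ligands themselves. Dkk3 is the divergent member of the Dickkopf family and does not act as a general blocker of Lrp5 and Lrp6. Frzb and Wif1 are well known from cartilage, where limits on Wnt signaling help to keep chondrocytes from maturing.

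Each library held 9061491 to 12017008 counts on genes, and 40.4 to 44.2% of reads were counted on genes. Levels are given in CPM, the count of a gene relative to all counts on genes in its library, after scaling by the trimmed mean of M values (TMM), which corrects for differences in RNA composition between libraries. Cartilage markers were abundant in every library, with Acan, which encodes the main proteoglycan of cartilage, at 3565 to 5462 CPM and a summed level of 8 of 8 cartilage markers of 72388 to 134791 CPM. For the nucleus pulposus, the notochord-derived core of the disc, 6 of 7 markers passed the count filter, whereas Noto was at 0 in all libraries but mutant replicate 2. Skeletal muscle markers stood apart in control replicate 1, where 6 of 6 markers summed to 3609 CPM, compared with 65 to 148 CPM in the other libraries. Adgrg6, listed as Gpr126, lay between 94.3 and 138 CPM with overlapping groups (log2 fold change 0.17, SE 0.18, adjusted p = 0.849 in edgeR), but counts over the whole gene do not measure the deleted part and so do not check the labels.

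RefSeq promoter windows on GRCm38.p6, which run from 250 bases before to 50 bases after the annotated start, were at hand for Dkk1, Dkk2, Frzb, Sfrp2, Sfrp5 and Wif1. The 250 bases upstream of the start are shown for Wif1 and Sfrp2, whose levels were higher in mutants, and for Frzb, which alone of the 6 windows held the STAT palindrome TTCNNNGAA. The Wif1 sequence is at chr10:121033754-121034003 on the plus strand, the Sfrp2 sequence at chr3:83766071-83766320 on the plus strand, and the Frzb sequence at chr2:80447397-80447646 on the minus strand. Each is written 5′ to 3′, and capitals mark the bases of a match on either strand to TTCNNNGAA, to the cyclic AMP response element TGACGTCA or to the TCF/LEF core CTTTGA.
Wif1: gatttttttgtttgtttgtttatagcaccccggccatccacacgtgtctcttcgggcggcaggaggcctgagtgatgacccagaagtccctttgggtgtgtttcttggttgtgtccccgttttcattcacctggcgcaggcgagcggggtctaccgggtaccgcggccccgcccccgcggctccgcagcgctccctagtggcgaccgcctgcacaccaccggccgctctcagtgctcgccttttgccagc
Sfrp2: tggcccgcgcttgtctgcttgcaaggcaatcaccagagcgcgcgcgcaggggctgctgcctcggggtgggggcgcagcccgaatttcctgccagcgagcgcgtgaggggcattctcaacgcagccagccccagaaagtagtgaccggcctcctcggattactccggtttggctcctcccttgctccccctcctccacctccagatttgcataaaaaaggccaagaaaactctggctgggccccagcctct
Frzb: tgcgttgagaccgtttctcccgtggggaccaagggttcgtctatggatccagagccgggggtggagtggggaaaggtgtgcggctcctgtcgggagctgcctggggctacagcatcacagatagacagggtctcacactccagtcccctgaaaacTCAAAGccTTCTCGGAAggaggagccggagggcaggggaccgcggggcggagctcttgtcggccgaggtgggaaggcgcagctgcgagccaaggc
In the Frzb window the TCF/LEF core began at position -95 and the STAT palindrome at position -87 relative to the RefSeq start, with no overlap between them. The Dkk1 window held the TCF/LEF core at positions -174 and -117. For Frzb, Dkk1 and Wif1 the GENCODE M21 annotation starts the gene further upstream, at 80447625, 30549665 and 121033960. Part of the sequence before the RefSeq start of these genes is therefore inside the GENCODE gene. This holds for the STAT and TCF/LEF matches of Frzb and for the Dkk1 core at -117. The STAT palindrome was in 1 of 6 member windows and in 8.3% of all 32851 windows of this length, and the TCF/LEF core in 2 of 6 and in 16% of all windows. The cyclic AMP response element was in 0 of 6 and in 1.79% of all windows. The windows of the 6 members were rich in G and C, from 57.7% in Dkk2 to 66% in Sfrp2, beside a median of 52.7% over all windows. These matches describe the letters of the windows and were not tested for binding.

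Among the 9 members, transcripts of the P20 IVD came mostly from Sfrp5 and Wif1. Antagonists outside the set, such as Trabd2b and Notum, are not part of this order. To compare levels between genes, CPM was divided by the exon length of each gene in GENCODE M21, which ranged from 1900 bp for Sfrp5 to 4372 bp for Sfrp1. In controls, Sfrp5 was at 221 ± 116 CPM per kb and Wif1 at 141 ± 40.4 CPM per kb (mean ± SD, n = 3, as throughout). In mutants the order of the top pair of genes was the other way, with Wif1 at 204 ± 21.2 and Sfrp5 at 158 ± 57.9 CPM per kb. Sfrp5 and Wif1 did not differ from each other beyond their spread in either genotype, since their ranges over libraries overlapped. Frzb came next in both genotypes, at 32.4 ± 5.79 CPM per kb in controls and 27.7 ± 7.71 in mutants, and below Sfrp5 and Wif1 in all 6 libraries. Dkk3 followed, at 11.3 ± 2.96 CPM per kb in controls and 18.4 ± 3.42 in mutants, and its highest library, at 21.1, lay just under the lowest library of Frzb, at 21.6.

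The 5 other members were near the floor of this order. Dkk1 lay between 0.548 and 4 CPM per kb over the 6 libraries, Sfrp2 between 1.19 and 4.86, Sfrp1 between 0.808 and 2.81, Dkk2 between 0.545 and 1.34, and Sfrp4 between 0.307 and 1.1. Sfrp2 was above Dkk2 and above Sfrp4 in all 6 libraries, and the rest of the order among these 5 was not resolved, since the values crossed between libraries. Dkk3 was therefore the most abundant Dickkopf gene of the P20 disc, with a per-kb level 2.59 to 6.12 times that of Dkk1 and Dkk2 together in control libraries and 3.95 to 15.2 times in mutant libraries. Sfrp5 and Wif1 together made up 80.7 to 90% of the summed per-kb level of the 9 genes in every library, and the sum itself overlapped between genotypes, at 411 ± 155 CPM per kb in controls and 416 ± 57.4 in mutants.

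**Figure D1:**
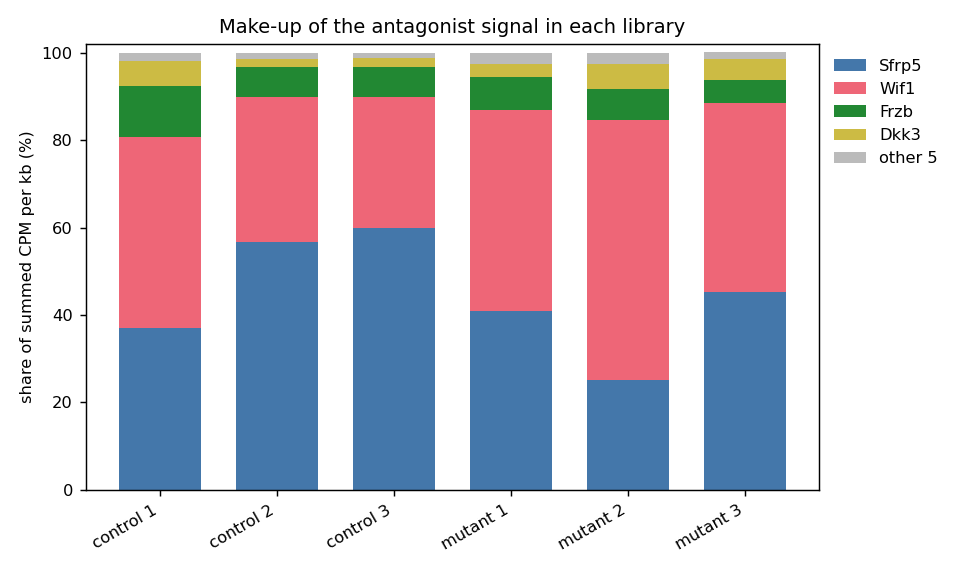
Share of each antagonist in the summed level of the 9 genes (CPM per kb of exon, in percent) for the 3 control and 3 mutant libraries, with Dkk1, Dkk2, Sfrp1, Sfrp2 and Sfrp4 joined as the other 5. Sfrp5 ranges from 25.2% in mutant 2 to 60% in control 3, and Wif1 from 29.9% in control 3 to 59.4% in mutant 2.

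The share of Wif1 in this sum was 43.6, 33.1 and 29.9% in control replicates 1 to 3 and 45.8, 59.4 and 43.3% in mutant replicates 1 to 3. The ratio of Wif1 to Sfrp5 per kb was 1.18, 0.584 and 0.498 in controls and 1.12, 2.36 and 0.956 in mutants. Control replicate 1 held both the lowest Sfrp5 of the controls and the highest ratio among them, so the groups overlapped for both quantities. The plot of shares by library shows the same split, with control replicate 1 nearer to the mutants than to the other controls.

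Col2Cre;Adgrg6 f/f mutant IVDs had higher levels of Dkk3, Sfrp1, Sfrp2 and Wif1 at an unadjusted p under 0.05 in edgeR's quasi-likelihood test, by 1.45-fold to 2.3-fold. Lower levels at that threshold were found for 0 of 9 members. With 1 library left out, the count of higher members was 2 without control replicate 3 or mutant replicate 1 and 3 in the other fits, and 1 member, Sfrp5, was lower without control replicate 1. Over all 16152 genes tested, 2.89% were higher and 4.32% lower in mutants at the same threshold with all 6 libraries, which is 1164 genes in either direction. Without control replicate 1 this was 2427 of 17164 genes, without control replicate 3 it was 618 of 16388, and without mutant replicate 1 it was 817 of 17179. The remaining fits that omit a library called 874 to 1669 genes. After Benjamini-Hochberg adjustment in edgeR, 0 of 9 members passed, beside 0.00619% of all genes, which is 1 gene, and in DESeq2 0 of 9 passed as well. All 9 members passed the filter on low counts. In 3 of 9 members every mutant library was above every control library, whereas this held for 5.45% of all genes, and for 5.96% in the opposite direction, where 0 members lay. The log2 fold change was positive for 5 members and negative for 4, with a median of 0.53, beside a median of -0.013 over all genes tested. In bulk tissue, more cells of a type and more RNA per cell cannot be told apart, and this applies to each difference given here.

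**Figure D2:**
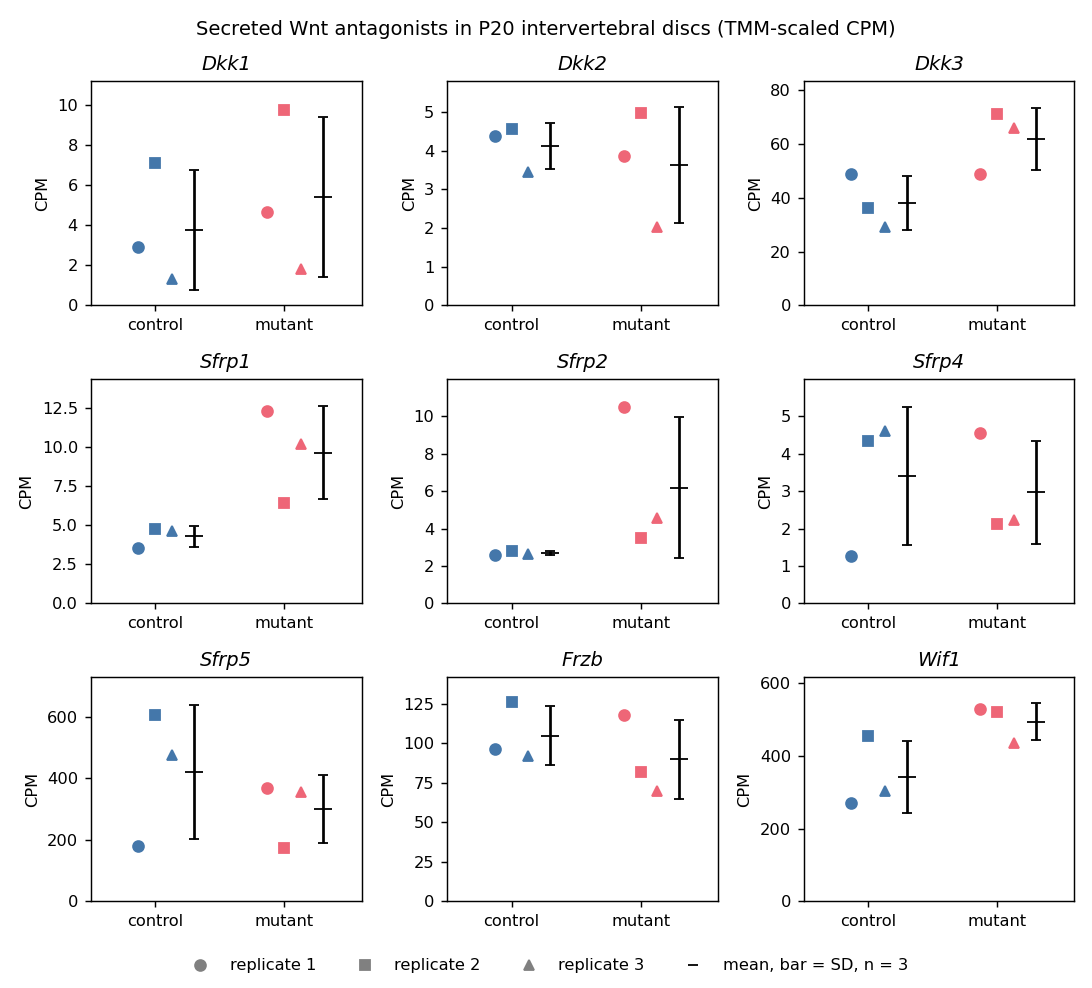
Level of each antagonist in CPM after TMM scaling (y axes start at 0, each gene on its own scale) in control (blue) and mutant (red) IVD libraries, with replicate numbers as symbols and the mean ± SD of the 3 libraries in black. Sfrp1, Sfrp2 and Dkk3 have all mutant points above all control points, for Dkk3 by 48.94 against 48.80 CPM only, and Sfrp5, Sfrp4 and Dkk1 spread widely within each genotype.

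Dkk3 (chr7:112116017-112159057, minus strand, GRCm38) is a secreted glycoprotein of cartilage and many other tissues. Its levels were 48.8, 36.2 and 29.2 CPM in control replicates 1 to 3 and 48.9, 70.9 and 65.8 CPM in mutant replicates 1 to 3, from 326 to 869 counts per library. Mutant replicates 2 and 3 were well above all controls, whereas mutant replicate 1 was level with control replicate 1. The mean was 38.1 ± 9.95 CPM in controls and 61.9 ± 11.5 CPM in mutants. By edgeR, Dkk3 was 1.63-fold higher in mutants (95% interval 1.15 to 2.3, log2 fold change 0.70, SE 0.22, unadjusted p = 0.0101, adjusted p = 0.676). The log2 fold change stayed between 0.55 and 0.94 with each library left out in turn, with an unadjusted p in edgeR of 0.00153 to 0.0442. The study itself names Dkk3 among its significantly upregulated genes, from these same libraries. The values given here are therefore not independent of that finding.

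Whether the genotypes overlap for Dkk3 depends on how the libraries are scaled. With TMM, the lowest mutant was at 48.94 CPM and the highest control at 48.80 CPM. With median-of-ratios factors (RLE) these were 48.56 and 48.60 CPM, and with no scaling factor 43.60 and 47.86 CPM, so that the groups overlapped. The scaling factors of mutant replicate 1 (0.8924) and control replicate 3 (1.149) were the lowest and the highest of the 6 libraries.

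**Figure D3:**
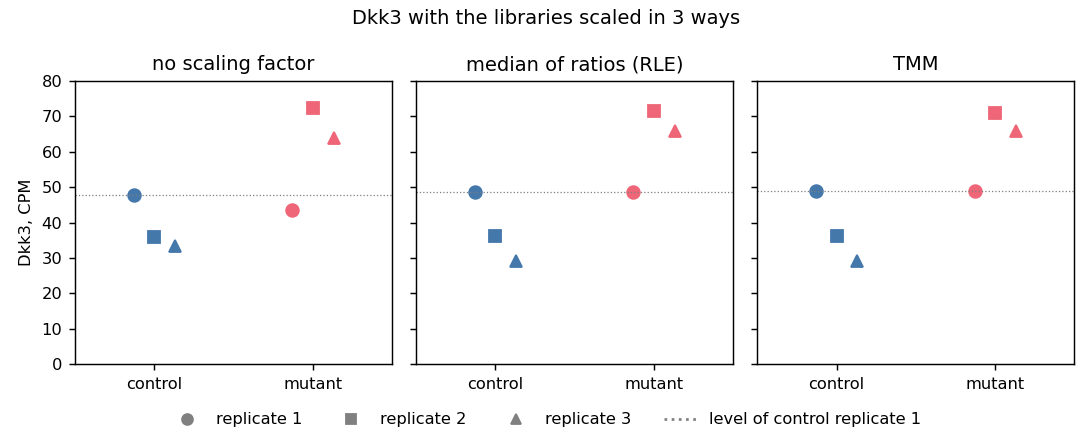
Dkk3 in each library as CPM (y axes start at 0) with no scaling factor, with median-of-ratios factors and with TMM, and a dotted line at the level of control replicate 1. Mutant replicates 2 and 3 are above all controls in each panel, while mutant replicate 1 sits below control replicate 1 with no scaling factor, at 43.60 against 47.86 CPM, and level with it in the other panels.

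Against the other 8 antagonists in the same library, a comparison that needs no scaling between libraries, Dkk3 counts stood at a log2 ratio of -3.52, -5.06 and -4.93 in controls and -4.43, -3.50 and -3.74 in mutants. The highest control, replicate 1, and the highest mutant, replicate 2, were nearly equal. The means were -4.50 ± 0.86 and -3.89 ± 0.48, a difference of 0.61 that was within the spread between replicates (two-sided exact permutation test, p = 0.3, with 0.1 the smallest p that 20 arrangements allow). The difference was 1.11 without control replicate 1, when both remaining controls were below all mutants, 0.33 without control replicate 2 and 0.40 without control replicate 3. Most of the counts of the other members were those of Sfrp5 and Wif1.

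Dkk1 and Dkk2, the Lrp5 and Lrp6 blockers, gave no call. Dkk1 (chr19:30545863-30549665, minus strand) was at 2.89, 7.11 and 1.33 CPM in controls and 4.67, 9.71 and 1.81 CPM in mutants, from 17 to 119 counts per library. Replicate 2 was the highest and replicate 3 the lowest in both genotypes, and the 5.35-fold range within controls exceeded the difference between the means, 3.77 ± 2.99 and 5.39 ± 4 CPM. In edgeR its log2 fold change was 0.54 (SE 0.69, 95% interval -1.0 to 2.07, adjusted p = 0.876). Dkk2 (chr3:132085292-132180304, plus strand) was at 4.39, 4.55 and 3.44 CPM in controls and 3.87, 4.98 and 2.02 CPM in mutants. The groups overlapped, with the highest and the lowest library both mutant, and the log2 fold change was -0.18 (SE 0.45, 95% interval -1.18 to 0.82, adjusted p = 0.943 in edgeR). The interval of Dkk1 reached up to 2.07 and that of Dkk2 down to -1.18, so that differences up to these sizes are not excluded.

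Of the Frizzled-related proteins, Sfrp1 and Sfrp2 were higher in mutants, although both were low in the disc. Sfrp1 (chr8:23411502-23449632, plus strand) was at 3.53, 4.77 and 4.61 CPM in controls and 12.3, 6.45 and 10.2 CPM in mutants, from 33 to 108 counts per library. Each mutant library was above each control, under all 3 scalings. The mean was 4.31 ± 0.675 CPM in controls and 9.65 ± 2.96 CPM in mutants, which edgeR gave as 2.23-fold higher (95% interval 1.32 to 3.77, log2 fold change 1.16, SE 0.34, unadjusted p = 0.00674, adjusted p = 0.676). With any library left out, its log2 fold change was 0.98 to 1.40 and its unadjusted p in edgeR 0.00229 to 0.029.

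Sfrp2 (chr3:83766321-83774316, plus strand) was steady in controls, at 2.57, 2.78 and 2.66 CPM, and uneven in mutants, at 10.5, 3.51 and 4.57 CPM, from 24 to 92 counts per library. All mutant libraries lay above all controls under the 3 scalings, but mutant replicate 1 was far above the other mutants. The mean was 2.67 ± 0.104 CPM in controls and 6.18 ± 3.75 CPM in mutants, and edgeR gave 2.3-fold (95% interval 1.1 to 4.82, log2 fold change 1.20, SE 0.48, unadjusted p = 0.0305, adjusted p = 0.676). Leaving out mutant replicate 1 gave a log2 fold change of 0.63 (unadjusted p = 0.234 in edgeR), and with about the same log2 fold change as in all 6 libraries, the threshold was also missed without control replicate 2 (1.22, unadjusted p = 0.0602) and without control replicate 3 (1.20, unadjusted p = 0.0557). It was missed as well with replicate number added as a block (1.05, unadjusted p = 0.0598 in edgeR). The antisense gene Gm26771 shares 347 bp of exon with Sfrp2. Since the strand setting of the counting is not given, how reads in that stretch were assigned to the pair is not known. Gm26771 had 129 counts in all beside 261 for Sfrp2, and its log2 fold change was -0.12 (unadjusted p = 0.836 in edgeR).

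Sfrp5, Frzb and Sfrp4 were not called, and each had a lower mean in mutants. Sfrp5 (chr19:42197971-42202252, minus strand) was at 179, 607 and 476 CPM in controls and 370, 173 and 356 CPM in mutants. Control replicate 1 and mutant replicate 2 were both low, far under the remaining libraries, and the means were 421 ± 220 and 299 ± 110 CPM. In edgeR the log2 fold change was -0.49 (SE 0.42, 95% interval -1.42 to 0.44, adjusted p = 0.814). Without control replicate 1, the library with high skeletal muscle markers, it was -0.83 with an unadjusted p of 0.0218 in edgeR, and without control replicate 2 it was -0.14. The part of skeletal muscle in this result was not tested. Leaving out the same library gave log2 fold changes of 0.94 for Dkk3 (unadjusted p = 0.00153 in edgeR), 1.05 for Sfrp1 (unadjusted p = 0.0179), 1.20 for Sfrp2 (unadjusted p = 0.0493) and 0.41 for Wif1 (unadjusted p = 0.125), so that of these members Wif1 alone lost its call.

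Frzb (chr2:80411970-80447625, minus strand), a Wnt-binding protein of articular cartilage, was at 96.3, 126 and 91.9 CPM in controls and 118, 81.7 and 69.9 CPM in mutants. The groups overlapped, since mutant replicate 1 was above control replicates 1 and 3. The log2 fold change was -0.22 (SE 0.23, 95% interval -0.73 to 0.28, adjusted p = 0.843 in edgeR), one of the narrower intervals among the members. Sfrp4 (chr13:19623104-19632994, plus strand) was at 1.28, 4.33 and 4.61 CPM in controls and 4.55, 2.12 and 2.23 CPM in mutants, from 12 to 59 counts per library. Its lowest library was control replicate 1 and its next lowest mutant replicates 2 and 3, with a log2 fold change of -0.21 (SE 0.58, 95% interval -1.51 to 1.08, adjusted p = 0.949 in edgeR).

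Wif1 (chr10:121033960-121100650, plus strand), which binds Wnt ligands through a WIF domain, was at 269, 453 and 303 CPM in controls and 528, 519 and 435 CPM in mutants, from 2510 to 6365 counts per library. Mutant replicate 3 was below control replicate 2, so the groups overlapped, while the other mutants were above all controls. The mean was 342 ± 98 CPM in controls and 494 ± 51.5 CPM in mutants, which edgeR gave as 1.45-fold higher (95% interval 1.01 to 2.08, log2 fold change 0.53, SE 0.23, unadjusted p = 0.0461, adjusted p = 0.691). The call of Wif1 was kept in 1 of 6 fits with a library left out, namely without control replicate 2 (unadjusted p = 0.00783 in edgeR), and the highest unadjusted p was 0.127, without control replicate 3. The log2 fold change over these fits was 0.41 to 0.78, and it was 0.51 to 0.62 in the fits that omit a mutant library.

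**Figure D4:**
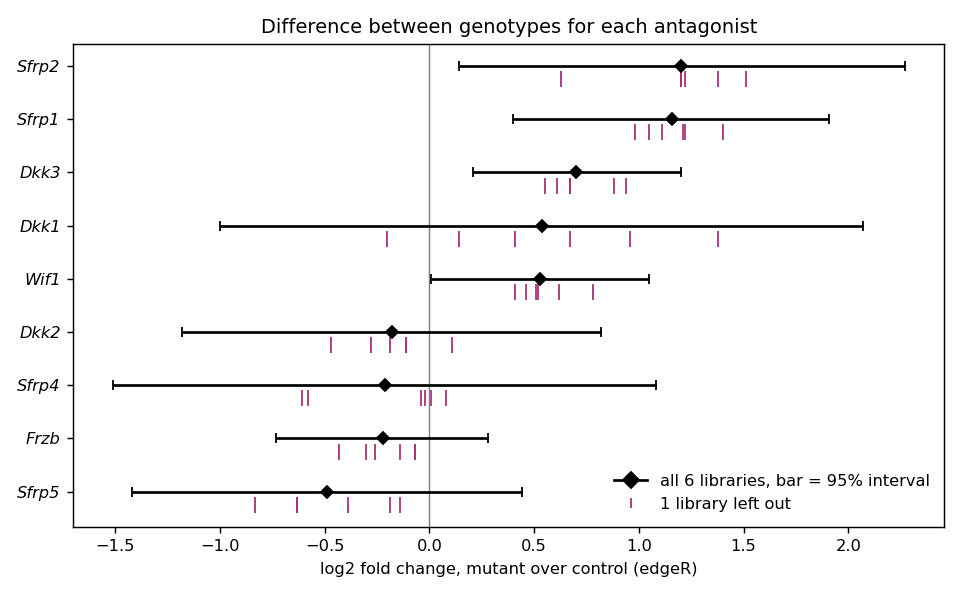
Log2 fold change of mutant over control from edgeR for each antagonist (diamond) with its 95% interval (bar), and the same value with 1 library left out in turn (purple ticks). The intervals of Sfrp2, Sfrp1, Dkk3 and Wif1 lie above 0, and the ticks of Dkk1, Dkk2 and Sfrp4 fall on both sides of 0.

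The SE of the log2 fold change was smallest for Dkk3, Frzb and Wif1, at 0.22 to 0.23 with 3073 to 25560 counts over the 6 libraries, and largest for Dkk1, Sfrp4, Sfrp2 and Dkk2, at 0.45 to 0.69 with 197 to 285 counts. Sfrp5 departed from this order, with 21941 counts and an SE of 0.42, and Sfrp1 had 418 counts and an SE of 0.34. The range within controls was 3.4-fold for Sfrp5, 3.59-fold for Sfrp4 and 5.35-fold for Dkk1, compared with 1.08-fold for Sfrp2, 1.35-fold for Sfrp1 and 1.67-fold for Dkk3. Control replicate 1, with the lowest Sfrp5 and Sfrp4 of the controls, also had the fewest genes with a count among the controls (20587, compared with 22971 and 23133). The mutants had 20421, 21178 and 21244 genes with a count, so control replicate 1 lay within their range and the other controls above it. The part of the number of detected genes in the result was not tested.

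The members also differed in their profiles across the 6 libraries. As a description, the distance between profiles was taken as the root mean square difference of log2 CPM after centring each gene, so that 0 means the same profile. The closest pair was Sfrp1 and Sfrp2 at 0.29, followed by Dkk2 and Frzb at 0.33, Sfrp4 and Sfrp5 at 0.37, and Dkk3 and Wif1 at 0.42, while Sfrp1 and Wif1 at 0.43 and Frzb and Wif1 at 0.45 were nearly as close. Dkk1 was near no other member, at 0.74 from Dkk2 and 1.30 from Sfrp5, the most distant pair. For every member, the nearest gene over all tested genes was closer than its nearest member. A search over 16152 genes makes this likely whatever the profiles, so it does not describe how alike the members are. These profiles share libraries and scaling factors.

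Over all tested genes, the 5 with profiles nearest to Dkk3 were Zmynd15 at a distance of 0.038, Igfbp5 at 0.068, Lpin3 at 0.093, AW209491 at 0.093 and Hoxa11os at 0.121. Igfbp5, a secreted binding protein of insulin-like growth factors, was by far the most abundant of these, at 246, 194 and 144 CPM in controls and 263, 353 and 308 CPM in mutants, and like Dkk3 it had mutant replicate 1 close to control replicate 1. The log2 fold change of Igfbp5 was 0.66, which its choice by likeness to Dkk3 fixes in large part. Zmynd15 and Hoxa11os were low, at means of 2.23 and 1.79 CPM over the 6 libraries, so their distances rest on few counts. The gene nearest to Sfrp2 was the immediate early gene Ier2, at 38.5, 45.6 and 43.1 CPM in controls and 131, 43.8 and 55.9 CPM in mutants, again with mutant replicate 1 far above the rest. The nearest profiles to the other members were C5ar2 for Sfrp1 (distance 0.088), Dusp14 for Wif1 (0.088), Vamp1 for Frzb (0.066), Padi2 for Sfrp5 (0.114), Tnfrsf22 for Dkk2 (0.116), Lonrf1 for Sfrp4 (0.161) and B230307C23Rik for Dkk1 (0.409). Of these, C5ar2 and B230307C23Rik were also low, at means of 1.64 and 1.17 CPM.

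In the other lists of the Wnt pathway, 0 or 1 gene per list was called in the same comparison, which for lists of this size is near the share over all tested genes (2.89% higher and 4.32% lower). Of 19 Wnt ligands, 10 passed the count filter, 0 were higher and 1 was lower in mutants at an unadjusted p under 0.05, with a median log2 fold change of -0.33. The call was Wnt4, at 38, 36.2 and 37.2 CPM in controls and 28.7, 27.7 and 28.6 CPM in mutants, with a log2 fold change of -0.39 (SE 0.15, unadjusted p = 0.0254, adjusted p = 0.676 in edgeR). All mutant libraries lay below all controls for Wnt4, and the unadjusted p in edgeR passed in 1 of 6 fits with a library left out, with a highest value of 0.0794, while the log2 fold change lay between -0.42 and -0.35. The summed level of the 19 ligands was 172 to 214 CPM in controls and 154 to 164 CPM in mutants, without overlap. The most abundant ligand, Wnt5b, was at 96 ± 17.1 and 79.5 ± 2.24 CPM, with a log2 fold change of -0.27 (adjusted p = 0.779 in edgeR).

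Of 15 receptors and co-receptors, 15 were tested and 0 passed at an unadjusted p under 0.05 in either direction, with a median log2 fold change of 0.05. Lrp5, the co-receptor that Dkk1 and Dkk2 bind, was at 119, 136 and 120 CPM in controls and 200, 107 and 220 CPM in mutants (log2 fold change 0.49, adjusted p = 0.725 in edgeR), with mutant replicate 2 below all controls. Of 15 other antagonists, 10 were tested and 0 passed, with a median of 0.07. The most abundant, Trabd2b, which cleaves Wnt ligands, had a log2 fold change of 0.06 (adjusted p = 0.955 in edgeR). Notum, an enzyme that removes the lipid of Wnt ligands, was at 152 ± 38 and 205 ± 71.5 CPM (log2 fold change 0.43, adjusted p = 0.78 in edgeR), and Kremen1, the partner of Dkk1, had a log2 fold change of 0.27 (adjusted p = 0.757 in edgeR).

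Of 13 genes of Wnt secretion and intracellular relay, 13 were tested and 0 passed, with a median of 0.03. Ctnnb1, which encodes beta-catenin, was at 313 ± 48.8 CPM in controls and 389 ± 101 CPM in mutants (log2 fold change 0.31, adjusted p = 0.79 in edgeR). Of 9 feedback and target genes, 7 were tested and 0 passed, with a median of 0.07. Ccnd1 had a log2 fold change of 0.27 (adjusted p = 0.804 in edgeR) and Lef1 one of 0.07 (adjusted p = 0.966 in edgeR), and Sp5 was at 0 in every library. Axin2, a feedback inhibitor widely read as a Wnt target and singled out here after its values were seen, was at 9.2, 4.66 and 5.47 CPM in controls and 17, 6.2 and 11.3 CPM in mutants, with a log2 fold change of 0.83 (unadjusted p = 0.0681, adjusted p = 0.705 in edgeR) and overlapping groups. Differences between these lists and the 9 members were not tested.

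Of the cell type marker sums, those of fibroblasts and of smooth muscle and pericytes did not overlap between the genotypes, while no marker of any list passed adjustment in edgeR. The counts of called markers stand beside 2.89% of all tested genes higher and 4.32% lower in mutants. The summed level of 6 of 6 fibroblast markers was 1752 to 2200 CPM in controls and 2939 to 4928 CPM in mutants, without overlap, and 2 of 6 were called at an unadjusted p under 0.05, both higher. Col3a1, a fibrillar collagen of connective tissue that makes up most of this sum, had a log2 fold change of 1.08 (adjusted p = 0.627 in edgeR), and Dpt one of 0.51 (adjusted p = 0.678 in edgeR). Clec3b had one of 0.68 (adjusted p = 0.701 in edgeR), with mutant replicate 1, at 50.6 CPM, below all controls. The log2 fold change was positive for 5 of 6 fibroblast markers and negative for 1, Pi16, at -0.58 (adjusted p = 0.776 in edgeR). In mutants the fibroblast sum was lowest in replicate 1, the library with the highest Sfrp1 and Sfrp2 and the lowest Dkk3 of the mutants. The 4 of 4 smooth muscle and pericyte markers summed to 199 to 251 CPM in controls and 277 to 413 CPM in mutants, also without overlap, with 0 called. Acta2, which makes up most of this sum, did overlap, at 156, 105 and 149 CPM in controls and 150, 168 and 308 CPM in mutants. Of 6 of 6 annulus and tendon markers, summing to 2889 to 4219 CPM in controls and 3775 to 5331 CPM in mutants, 2 were called higher, namely Thbs4 and the tenocyte marker Tnmd, the latter named after its values were seen. Fmod, which makes up most of this sum, was not called and overlapped between the genotypes (log2 fold change 0.32, adjusted p = 0.821 in edgeR). The same held for Scx (log2 fold change 0.47, adjusted p = 0.788 in edgeR). The part of these cell types in the levels of Dkk3, Sfrp1, Sfrp2 and Wif1 was not tested.

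The remaining marker sums overlapped between the genotypes, and the called genes named here were singled out after their values were seen. Hypertrophic cartilage markers summed to 369 to 874 CPM in controls and 192 to 423 CPM in mutants, with 1 of 3 called lower (Ihh), and osteoblast markers to 356 to 578 and 454 to 724 CPM, with 2 of 6 called higher (Bglap and Bglap2) and 1 lower (Phex). Of the cartilage markers 1 of 8 was called lower (Matn3), and nucleus pulposus markers summed to 1129 to 2223 CPM in controls and 1205 to 2303 CPM in mutants, with 0 called. Endothelial markers summed to 119 to 232 and 191 to 215 CPM with 0 of 5 called, macrophage markers to 28.7 to 39.6 and 33.9 to 49.2 CPM with 1 of 4 called higher (Cd68), and erythroid markers to 38.5 to 337 and 207 to 423 CPM with 0 of 6 called. Neuron and glia markers summed to 218 to 1646 CPM in controls and 903 to 3567 CPM in mutants, with 1 of 7 called higher (Gfap) and Tubb3 at 0 in every library. Neutrophil markers summed to 9.74 to 29.2 CPM in controls and 22.5 to 88.8 CPM in mutants, with 1 of 4 called higher (Mpo), and both of these sums were highest in mutant replicate 1, as Sfrp1 and Sfrp2 were. Of 6 skeletal muscle markers, 6 were called lower, although control replicate 1 was the only library above 148 CPM in their sum, and the part of these cells in the antagonist levels was not tested.

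**Figure D5:**
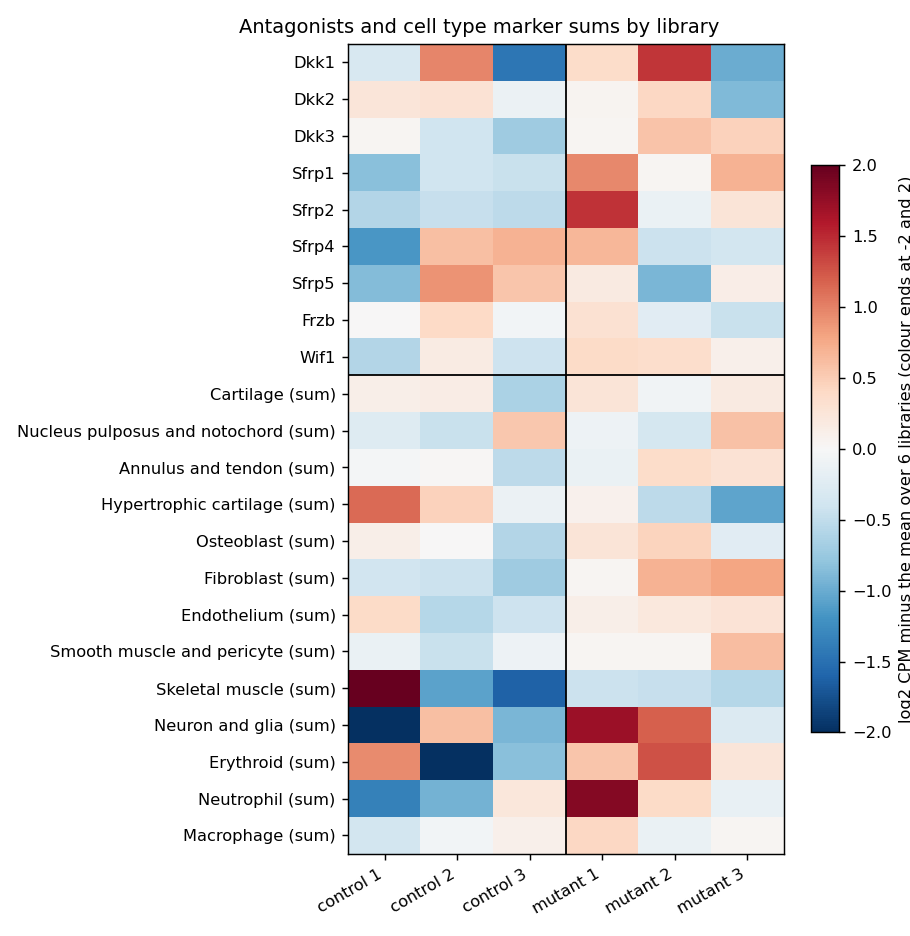
Log2 CPM minus the mean over the 6 libraries for each antagonist and for the summed markers of each cell type (colour scale ends at -2 and 2), with control and mutant libraries divided by a vertical line. Fibroblast and smooth muscle sums are higher in each mutant than in each control, as are Sfrp1 and Sfrp2, and the skeletal muscle sum stands out in control replicate 1 at 4.17 above its mean.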

How the data were processed

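The authors deposited raw counts per gene symbol, 1 file per library. Per the methods, reads were trimmed with Cutadapt and aligned by HISAT2 to GRCm38.88, whereas the submitters' processing notes name STAR 2.5.3a, HTSeq and DESeq2. A strand setting was not given in the sources used here. A deposited table of the authors' own normalized values, fold changes and p-values for selected genes was not used.

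The 9 members and all gene lists were chosen with earlier results of these data known. Counts were tested with edgeR 4.0.16 in R 4.3.3 (TMM, filterByExpr with a count minimum of 10, quasi-likelihood test, Benjamini-Hochberg adjustment over 16152 genes), 3 control against 3 mutant libraries. Alternatives were RLE factors, no filter, a replicate block, DESeq2 1.42.0 and leaving out each library. Reads without molecular identifiers are not independent molecules, and p-values measure the spread between pools. Lengths and positions are from GENCODE M21 (GRCm38), in which 90.8% of symbols were found. Profiles used log2 CPM with a prior count of 2. Reads on no gene were left out of library sizes (39.4 to 43.3% without a feature).

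Genes named were all members, the genes of each Wnt list at an unadjusted p under 0.05 or otherwise up to 3 with the highest mean CPM, the 5 profiles nearest to Dkk3 and the nearest to each other member, and up to 3 of the most abundant markers of a cell type list. Outside this rule, Wnt5b, Axin2, Pi16, genes at 0 and the called cell type markers were named after their values were seen.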

Additional observations from a re-analysis of the deposited data

How the results depend on the processing

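Sfrp1 and Dkk3 kept their direction and an unadjusted p under 0.05 in all 10 alternatives run. No member passed adjustment in any alternative run. Of 90 values of the 9 members under these 10 alternatives, 76 stayed on their side of the threshold with the same sign, 9 lost the call with the same sign, some of them with a log2 fold change as large as before (Sfrp2 at 1.22 without control replicate 2, Wif1 at 0.62 without mutant replicate 3), 1 gained a call and 4 changed sign. Over the 6 fits that omit a library, the number of members higher in mutants ranged from 2 to 3 and the number lower from 0 to 1, the latter being Sfrp5 without control replicate 1, and the log2 fold change ranged from -0.20 to 1.38 for Dkk1, -0.47 to 0.11 for Dkk2 and -0.61 to 0.08 for Sfrp4; the cause was not tested. The numbers do not pair the libraries by the labels, and same-numbered libraries correlated at 0.159, -0.132 and 0.101 in their deviations; under the replicate block, the Sfrp2 log2 value was 1.05 (unadjusted p = 0.0598 in edgeR) and 3 members were higher.

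Over all genes, calls at an unadjusted p under 0.05 numbered 1164, and 2276 of 26418 without the filter on low counts, 2427 without control replicate 1, 618 without control replicate 3 and, among fits that omit a mutant library, 817 to 1669. At an adjusted p under 0.05, calls numbered 1 in edgeR, 245 without the filter, 31 without control replicate 1, 58 in DESeq2 and 0 with the block. The lowest adjusted p of a member over these alternatives was 0.0874 in edgeR, for Dkk3 without the filter, and the highest was 0.999. Sfrp4, Dkk2, Sfrp2 and Dkk1 had the fewest counts, 197 to 285 in all.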
